A study of Mus musculus with 18 samples.

Results

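The response of Apoe-/-/Treml4-/- double-knockout (DKO) macrophages to a low amount of oxidized low-density lipoprotein (oxLDL) was examined in 6 of the 18 libraries of the series. These were 3 DKO libraries given oxLDL at 10 µg/ml (oxLDL 10) and 3 untreated DKO libraries, which received the vehicle PBS. The cells were bone marrow-derived macrophages (BMDM) of the C57BL6 strain, grown from total marrow with M-CSF, and the DKO mice lacked both Apoe, which encodes the lipoprotein ligand apolipoprotein E, and the myeloid receptor gene Treml4. The remaining groups, also of 3 libraries each, were DKO cells with oxLDL at 60 µg/ml (oxLDL 60) and Apoe-/- cells that kept Treml4, untreated or with oxLDL at 10 or 60 µg/ml. The series text gives 16 h of exposure and the study's methods give a longer one, so the duration is uncertain. A treatment label also names LPS, which the group names do not carry, and ages of the mice are not given in the sources used here. Of 18668 gene symbols in the table, 12838 reached 0.1 RPKM (reads scaled to transcript length and library size) in at least 3 of the 18 libraries and were compared. At that limit, 123 genes passed with exactly 3 libraries and 180 fell outside with exactly 2.

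Macrophages take up oxLDL through scavenger receptors, and its cholesterol is freed in the lysosome. Sterols then act through a pair of opposed regulators. Oxysterols activate the liver X receptors (LXR), nuclear receptors that turn on cholesterol export, while cholesterol in the endoplasmic reticulum holds back SREBP2, the membrane-bound factor that drives cholesterol synthesis and LDL uptake. Oxidized lipids also activate NRF2, the regulator of antioxidant and haem-handling genes. Lipid-loaded macrophages of the atherosclerotic plaque are called foam cells. A lowered inflammatory and interferon gene program has been described in them beside these lipid programs. The study instead cites inflammatory pathways of foamy macrophages as resembling those of LPS treatment.

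The deleted genes were read in each library as a check of the labels. Treml4 was listed at 0 RPKM in 5 of the 6 DKO libraries and at 0.0116 RPKM in untreated replicate 2, while Apoe-/- libraries that were untreated or given oxLDL 10 stood between 1.86 and 3.61 RPKM. Residual Apoe transcript, which is deleted in both genotypes, was 0.349, 0.397 and 0.774 RPKM in untreated DKO libraries and 0.752, 0.674 and 1.39 RPKM with oxLDL 10. Its log2 fold change was 0.78 (limma SE 0.40, adjusted p = 0.435), and with the replicate number as a block the adjusted p was 0.000207. Its groups overlapped. Defining macrophage markers summed to between 8621 and 11227 RPKM in untreated libraries and between 7585 and 10367 RPKM with oxLDL 10, with Lyz2 highest. The macrophage markers called included Mertk, which was higher, and Cd14, which was lower, with oxLDL 10. No tested marker of dendritic, neutrophil, T, B, mast, erythroid, fibroblast or endothelial cells was called between the groups. Many were below the filter and could not be called. Those tested were 1 of 7 dendritic, 2 of 8 T and NK, 2 of 6 B and 2 of 6 erythroid markers. Of the others, 3 of 5 mast, 3 of 5 endothelial, 5 of 7 fibroblast and 8 of 9 neutrophil markers were tested. Neutrophil markers reached 38.1 to 85.1 RPKM in sum without and 39.9 to 83.2 RPKM with oxLDL 10. In bulk RNA, fewer cells of a type and less RNA per cell cannot be told apart.

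Replicate 3 of the DKO groups stood apart from the other replicates. It carried Xist, the transcript of the inactive X chromosome, at 14.5 RPKM untreated, 12.8 RPKM with oxLDL 10 and 14.3 RPKM with oxLDL 60, where replicates 1 and 2 were at or below 0.0357 RPKM. The Y-linked gene Ddx3y was listed at 0 in all 3 of these libraries and stood between 13.8 and 18.7 RPKM in replicates 1 and 2. Counts and calls below that changed when replicate 3 was left out of every DKO group are given beside the main ones. Depth recovered from the table was 36.9 M to 45.7 M reads in the 6 libraries, and 3 reads over 1 kb then equal 0.0657 to 0.0812 RPKM. Pearson correlations between the 6 libraries on the log2 scale ran from 0.985 to 0.996 across genes, which are not independent replicates.

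A gene was called when its limma adjusted p (Benjamini-Hochberg, over all 12838 genes) was under 0.05 and its fold change was at least 1.4. Fold changes are differences of log2(RPKM + 0.1), so those of low genes are understated. Oxidized LDL at 10 µg/ml changed 290 genes, or 2.26% of those tested. Decreases were the larger share, with 217 genes lower (1.69% of genes tested) and 73 higher (0.569%). The median log2 fold change was -0.81 among called decreases, 0.70 among called increases and 0.02 over all genes tested. Of the called genes, 66 fell and 11 rose by at least 2-fold. The 3 treated and 3 untreated libraries did not overlap for 286 of the 290, and for 18.9% of all genes tested. The calls were made from these same libraries, so their separation follows largely from the calling rule and is no separate support. For any single gene an exact two-sided permutation test of 3 against 3 libraries cannot go below p = 0.10. With the replicate number as a block, 449 genes were called, 135 higher and 314 lower, and all 290 were among them. Without replicate 3 of every DKO group, 199 genes were called, 78 higher and 121 lower, and 172 of the 290 were among them. With the block added to that, a fit chosen after seeing the data, 372 genes were called and 248 of the 290 were among them. Without untreated replicate 3 alone 185 genes were called, and without oxLDL 10 replicate 2 alone 186. Without oxLDL 10 replicate 3 alone 139 genes were higher. All 290 kept their direction in each of these fits, which was largely fixed in advance. Leaving out a library cannot reverse a gene whose groups do not overlap, and the block leaves the fold changes as they were.

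**Figure D1:**
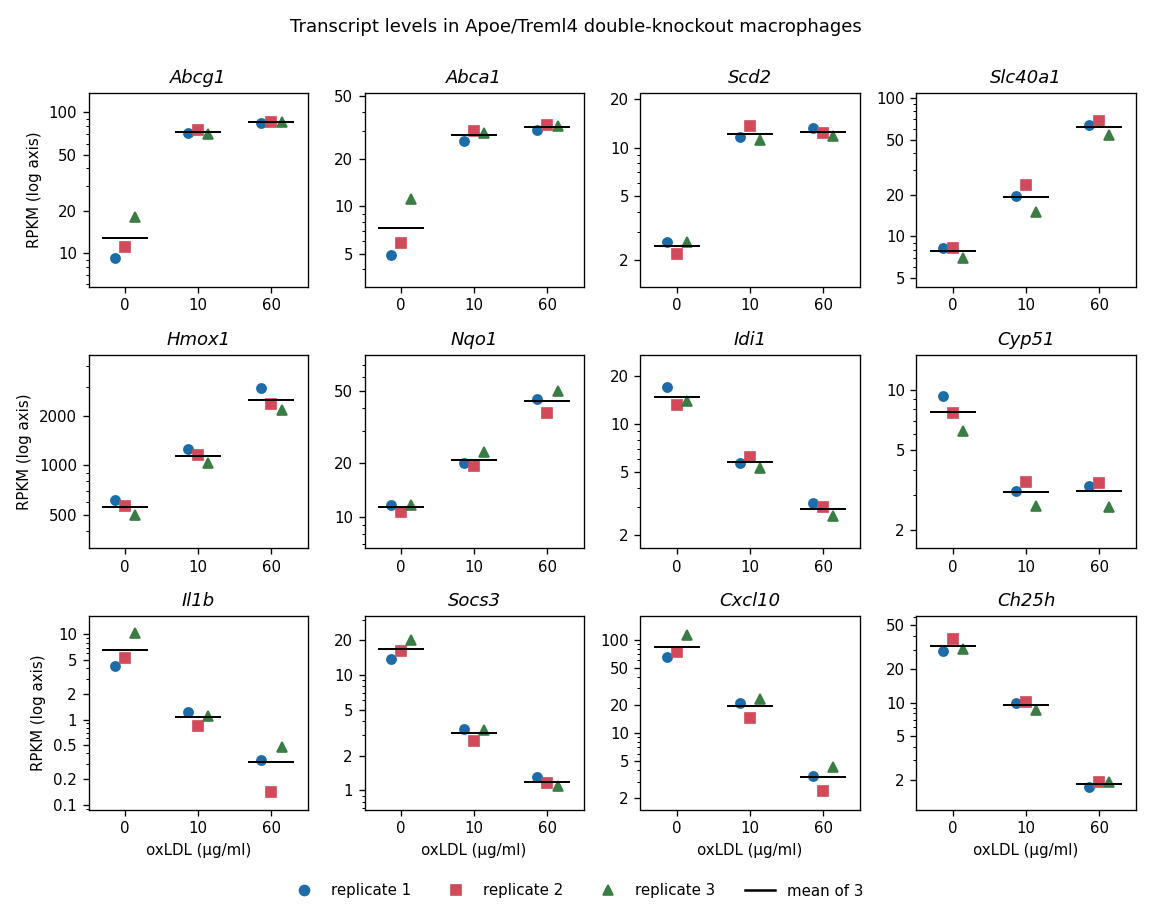
RPKM on a log axis for 12 genes in the 9 DKO libraries at 0, 10 and 60 µg/ml oxLDL, with a symbol for each replicate and a bar for the mean of 3. Abcg1 stood at 9.25 to 18.0 RPKM untreated and at 70.1 to 74.9 RPKM with oxLDL 10, and Il1b at 4.24 to 10.3 RPKM untreated and 0.848 to 1.23 RPKM with oxLDL 10.

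Cholesterol exporters led the increases. Abcg1, the transporter that passes cholesterol to HDL, was at 9.25, 11.1 and 18.0 RPKM in untreated replicates 1 to 3 and at 71.3, 74.9 and 70.1 RPKM with oxLDL 10. All treated libraries lay far above all untreated ones, and untreated replicate 3 was the highest of its group. The ratio of means was 5.65 and the log2 fold change 2.55 (limma SE 0.24, adjusted p = 1.13e-05). Abca1, which loads lipid-poor apolipoprotein A-I with cholesterol, went from 4.96, 5.90 and 11.2 RPKM to 26.1, 30.2 and 29.4 RPKM. Its groups did not overlap, and the log2 fold change was 2.03 (limma SE 0.32, adjusted p = 0.00142). Mylip, a ubiquitin ligase that limits lipoprotein uptake, was at 8.74, 8.74 and 12.3 RPKM untreated and at 23.6, 23.6 and 24.7 RPKM treated, with a log2 fold change of 1.28 (limma SE 0.15, adjusted p = 9.85e-05).

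Of 16 LXR targets and efflux genes tested, 5 were called higher and none lower, beside 0.569% higher among all genes. The other 2 were Arl4c, a small GTPase that acts in cholesterol transport to the membrane, and Mertk, the receptor that binds apoptotic cells. Arl4c rose from 40.3–42.7 to 62.5–67.6 RPKM (log2 fold change 0.67, limma adjusted p = 2.74e-05). Mertk rose from 2.20–2.76 to 4.20–4.89 RPKM, and its call (limma adjusted p = 0.0224) was lost without DKO replicate 3 (adjusted p = 0.117). The list median was 0.22, against 0.02 over all genes tested. The receptors themselves were not called, with log2 fold changes of -0.18 for Nr1h3 (LXRα) and -0.08 for Nr1h2 (LXRβ). Srebf1, an LXR target that encodes the fatty acid regulator SREBP1, had a log2 fold change of 0.23 (limma adjusted p = 0.119). It ranged over 15.3 to 17.7 RPKM untreated and 17.8 to 19.9 RPKM treated, without overlap. Lpl, the lipoprotein lipase, ranged over 312 to 424 RPKM untreated and 286 to 359 RPKM treated, and its groups overlapped.

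Cholesterol synthesis genes moved the other way. Idi1, the isopentenyl diphosphate isomerase, fell from 17.1, 13.1 and 14.1 RPKM to 5.74, 6.2 and 5.30 RPKM, a log2 fold change of -1.34 (limma SE 0.15, adjusted p = 8.95e-05). Cyp51, the sterol demethylase, fell from 9.32, 7.66 and 6.2 RPKM to 3.15, 3.49 and 2.65 RPKM, a log2 fold change of -1.28 (limma SE 0.16, adjusted p = 0.00018). The groups did not overlap for either gene, and replicate 3 was the lowest Cyp51 library of both. The transcript of Srebf2, which encodes SREBP2 itself, fell from 14.9, 13.5 and 15.8 RPKM to 7.57, 5.75 and 7.72 RPKM (log2 fold change -1.07, limma adjusted p = 2.64e-05).

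Of 27 genes of cholesterol synthesis, LDL uptake and SREBP2 control tested, 14 were called lower and none higher, beside 1.69% lower among all genes. The median was -0.51, and 24 of the 27 log2 fold changes were negative. Along the pathway, the called genes included Hmgcs1, Mvd, Idi1, Fdps, Fdft1, Sqle, Cyp51, Msmo1 and Sc5d, joined by Stard4, Insig1 and Srebf2. Acat2, Mvk and Lss had adjusted p under 0.05 but changed by less than 1.4-fold, at -0.48, -0.31 and -0.43. Hsd17b7 was called with the replicate block (adjusted p = 0.000156) and not without it (0.0692). Insig2, Scap, Ebp and Ggps1 lay between -0.01 and 0.07. Npc1l1 was too low to be tested. Without DKO replicate 3 the number called was again 14, with Acat2 in place of Sc5d.

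In fatty acid synthesis the members went in different directions. Scd2, a stearoyl-CoA desaturase that makes monounsaturated fatty acids, rose from 2.58, 2.18 and 2.58 RPKM to 11.6, 13.7 and 11.2 RPKM. The ratio of means was 4.97 and the log2 fold change 2.27 (limma SE 0.18, adjusted p = 7.17e-06). Scd1, its close relative, stayed at or below 0.176 RPKM in the 6 libraries (log2 fold change 0.66, limma adjusted p = 0.129). The 2 genes are similar in sequence, and how reads shared between them were counted is not given in the sources used here. Fads2, a desaturase of polyunsaturated fatty acids, fell from 2.97–4.01 to 1.75–2.52 RPKM (log2 fold change -0.79, limma adjusted p = 0.0192). Elovl6, an elongase, fell from 1.21–1.47 to 0.830–0.891 RPKM (log2 fold change -0.60, limma adjusted p = 0.0178), and this call was lost without DKO replicate 3 (adjusted p = 0.0753). Fasn, the fatty acid synthase, went from 12.1–14.2 to 8.53–10.2 RPKM without being called (limma adjusted p = 0.0625). Over 17 genes tested, 1 was higher and 2 lower, beside 0.569% higher and 1.69% lower among all genes. The list median was 0.03. Both decreases rested on single libraries. The number called lower was 0 or 1 when any 1 of the 6 libraries was left out, and Fads2 was not called without untreated replicate 3 (adjusted p = 0.112).

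Of the lipid droplet genes, 2 rose. Plin2, the coat protein of lipid droplets, went from 349, 370 and 260 RPKM to 523, 564 and 415 RPKM (log2 fold change 0.62, limma SE 0.12, adjusted p = 0.00551). Hilpda, an inhibitor of droplet lipolysis, went from 5.69, 5.95 and 3.70 RPKM to 9.29, 9.43 and 6.81 RPKM (log2 fold change 0.74, limma SE 0.18, adjusted p = 0.0239). Replicate 3 was the lowest for both genes in both groups, and neither was called without untreated replicate 3 (adjusted p = 0.0291 for Plin2, with a fold under the limit, and 0.148 for Hilpda). Without oxLDL 10 replicate 1 or 2 the number called was 1, and without oxLDL 10 replicate 3 it was 4. Plin2 and Hilpda were the called members among 25 PPAR targets, lipid droplet and fatty acid oxidation genes, beside 0.569% higher among all genes. The list median was 0.19. Cpt1a, which admits fatty acids to mitochondria, had a log2 fold change of 0.43, just under the fold limit, with a limma adjusted p of 0.00285. Cd36, a scavenger receptor and PPARγ target, had a log2 fold change of 0.43 (limma adjusted p = 0.129), and its groups overlapped at 165 to 238 and 227 to 338 RPKM.

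Among 11 scavenger receptors for modified LDL tested, 2 were called lower and none higher, beside 1.69% lower among all genes. Marco fell from 0.362–0.525 to 0.133–0.164 RPKM (log2 fold change -1.07, limma adjusted p = 0.00962). Olr1, which encodes the oxLDL receptor LOX-1, fell from 1.22–1.38 to 0.705–0.752 RPKM (log2 fold change -0.76, limma adjusted p = 0.0384). Neither was called without DKO replicate 3 (adjusted p = 0.134 and 0.186) or without untreated replicate 3 alone (0.0655 and 0.13), and 1 was called without oxLDL 10 replicate 1, oxLDL 10 replicate 2 or untreated replicate 2. Msr1, the class A scavenger receptor, overlapped between groups at 160 to 182 and 139 to 167 RPKM. Its log2 fold change was -0.11 (limma adjusted p = 0.746).

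**Figure D2:**
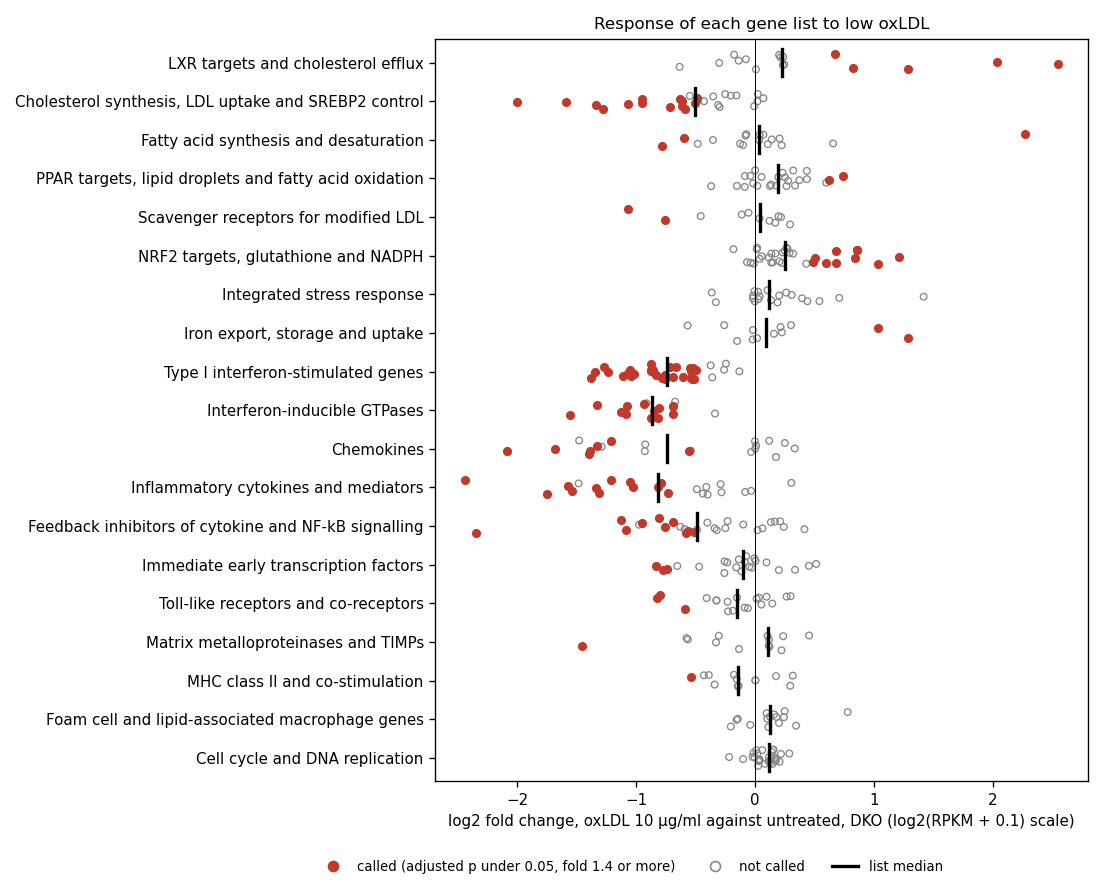
Log2 fold change of each tested member of 19 gene lists, oxLDL 10 against untreated DKO cells, with called genes filled and the list median as a bar. Called members of the LXR and NRF2 lists lie to the right of 0, and those of the cholesterol synthesis, interferon and cytokine lists to the left.

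NRF2 targets held the most called increases of any list. Hmox1, the haem oxygenase, was at 613, 568 and 504 RPKM untreated and at 1259, 1149 and 1031 RPKM with oxLDL 10, a log2 fold change of 1.03 (limma SE 0.15, adjusted p = 0.000716). Nqo1, a quinone reductase, went from 11.6, 10.7 and 11.6 RPKM to 19.9, 19.1 and 22.9 RPKM (log2 fold change 0.86, limma SE 0.10, adjusted p = 9.85e-05). Srxn1, the sulfiredoxin that repairs peroxiredoxins, went from 95.2, 93.4 and 75.2 RPKM to 169, 169 and 135 RPKM (log2 fold change 0.84, limma SE 0.11, adjusted p = 0.000194). In all 3 genes the groups did not overlap.

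The 33 NRF2 targets, glutathione and NADPH genes tested had a median of 0.25. Of these, 10 were called higher and none lower, beside 0.569% higher among all genes. Both subunits of the enzyme that starts glutathione synthesis were among them, with log2 fold changes of 0.68 for Gclm and 0.60 for Gclc. Glutathione reductase (Gsr) rose by 0.68, thioredoxin reductase (Txnrd1) by 0.49, peroxiredoxin 1 (Prdx1) by 0.50 and Osgin1 by 0.86 on the log2 scale. Osgin1 was not called without DKO replicate 3 (adjusted p = 0.158). Gsta3, a glutathione S-transferase, was at 0.821, 0.757 and 0.269 RPKM untreated and at 2.02, 1.78 and 0.794 RPKM treated, so replicate 3 was lowest in each group and the groups overlapped (log2 fold change 1.21, limma adjusted p = 0.0414). Without DKO replicate 3 its adjusted p was 0.00209. Without untreated replicate 3, 6 of the 33 were called, and Txnrd1, Prdx1, Gsta3 and Osgin1 were not. Without oxLDL 10 replicate 2 the count was also 6, and without DKO replicate 3 it was 9. The cystine carrier Slc7a11 was at 3.97 to 4.20 RPKM untreated and 3.53 to 4.51 RPKM treated. The transcripts of Nfe2l2 (NRF2) and of its inhibitor Keap1 were not called, at -0.18 and 0.04.

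Iron genes shared Hmox1 and added Slc40a1, the iron exporter ferroportin. It was at 8.18, 8.23 and 6.91 RPKM untreated and at 19.6, 23.4 and 15.0 RPKM with oxLDL 10, a ratio of means of 2.49 and a log2 fold change of 1.29 (limma SE 0.15, adjusted p = 0.000107). None of the other 10 iron genes tested was called. The integrated stress response, which acts through ATF4, held no called gene among 20, with a median of 0.12. Gdf15, a stress-induced cytokine, stood at 3.08, 3.58 and 1.13 RPKM untreated and 9.86, 9.45 and 2.77 RPKM treated. Each replicate was higher with oxLDL than without, and the groups overlapped through replicate 3. Its log2 fold change of 1.42 had a limma adjusted p of 0.0941, and of 1.79e-06 with the replicate block. Trib3 and Chac1 were likewise called with the block (adjusted p = 0.000169 and 0.022) and not without it (0.29 and 0.518). Without DKO replicate 3 at every treatment Gdf15 was the called member (adjusted p = 0.000461), and without oxLDL 10 replicate 3 alone 2 members were called higher.

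Among the other large increases were Hyal1, a lysosomal hyaluronidase that rose from 1.5–2.05 to 3.69–4.57 RPKM (log2 fold change 1.11, limma adjusted p = 0.000274), and Lipn, a lipase of the acid lipase family that rose from 0.672–1.07 to 1.5–2.27 RPKM (log2 fold change 1.13, limma adjusted p = 0.00215). The transcripts A530064D06Rik and B430306N03Rik rose by 0.98 and 0.86, and Ap5s1, a subunit of the endosomal AP-5 adaptor, by 0.84 on the log2 scale. Cd300lf, an inhibitory lipid-binding receptor, had a log2 fold change of 0.96 (limma adjusted p = 0.0339) and was not called without untreated replicate 3 (adjusted p = 0.209).

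Srxn1 and Osgin1 carry the AP-1 motif TGANTCA in the 250 bases before their transcription start. It is shown because the motif was in 10 of 72 promoters of called increases (13.9%), 30 of 190 of called decreases (15.8%) and 680 of 12815 promoters of all genes tested (5.31%). Sequences are from RefSeq (GRCm38.p6, the assembly that mm10 names), read 5′ to 3′, with TGANTCA in capitals. The letters read the same on both strands apart from the middle base.
Srxn1, chr2:152105274-152105523, plus strand: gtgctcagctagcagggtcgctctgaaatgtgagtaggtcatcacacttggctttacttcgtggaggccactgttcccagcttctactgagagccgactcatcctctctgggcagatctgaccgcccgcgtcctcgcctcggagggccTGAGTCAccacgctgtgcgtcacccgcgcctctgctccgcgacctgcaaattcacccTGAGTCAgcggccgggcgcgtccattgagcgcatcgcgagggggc
Osgin1, chr8:119436897-119437146, plus strand: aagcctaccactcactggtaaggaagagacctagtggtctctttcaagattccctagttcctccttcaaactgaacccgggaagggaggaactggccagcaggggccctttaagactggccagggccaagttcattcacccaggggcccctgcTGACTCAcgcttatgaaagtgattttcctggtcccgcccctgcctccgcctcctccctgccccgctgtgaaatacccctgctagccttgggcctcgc

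The same letters were also found for Lipn, Cxcl10 and Il1a. The Srxn1 window holds 2 matches, which begin 102 and 45 bases before the start, and the Osgin1 window 1, which begins 97 bases before it. Promoters were found for 23 of the 30 genes with the largest changes. In windows of 300 bases (250 before and 50 after the start), 7.81% of 32851 promoters held this motif. A match describes letters only. The sterol element core TCACNCCAC was in 1 of 27 promoters (3.7%) of the cholesterol synthesis list and 1.15% of those of genes tested, the E-box CACGTG in 22.2% and 10.1%, and CCAAT in 70.4% and 38.2%. The LXR element, a pair of half-sites set 4 bases apart, had no exact match in 15 promoters of the LXR list or in any of a gene tested.

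Inflammatory transcripts made up the steepest decreases. Il1b, the cytokine interleukin-1β, fell from 4.24, 5.25 and 10.3 RPKM to 1.23, 0.848 and 1.09 RPKM, a ratio of means of 6.22 in favour of the untreated cells and a log2 fold change of -2.44 (limma SE 0.38, adjusted p = 0.0013). Untreated replicate 3 was the highest library, and without DKO replicate 3 the log2 fold change was -2.10 (adjusted p = 0.0147). Socs3, an inhibitor of cytokine receptor signalling, fell from 13.6, 16.0 and 20.1 RPKM to 3.39, 2.68 and 3.35 RPKM (log2 fold change -2.35, limma SE 0.20, adjusted p = 7.17e-06). Cxcl10, the interferon-induced ligand of CXCR3, fell from 65.4, 74.0 and 111 RPKM to 21.1, 14.5 and 22.8 RPKM (log2 fold change -2.08, limma SE 0.23, adjusted p = 8.48e-05). Neither gene had overlapping groups.

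Ch25h, which makes 25-hydroxycholesterol, fell from 29.1, 37.9 and 30.6 RPKM to 9.97, 10.1 and 8.66 RPKM (log2 fold change -1.75, limma SE 0.20, adjusted p = 0.000106). Of the log2 fold changes of 23 inflammatory cytokines and mediators tested, 22 were negative, with a median of -0.82. Of the 23 genes, 12 were called lower and none higher, beside 1.69% lower among all genes. Besides Il1b and Ch25h these were Il1a, Il6, Il12b, Il27, Tnf, Csf2, Ptgs2, Nos2, Acod1 and Nlrp3. Tnf fell from 98–117 to 51.7–70.1 RPKM (log2 fold change -0.80, limma adjusted p = 0.00389), and Nlrp3, the inflammasome sensor, from 23.5–24.8 to 14.6–14.7 RPKM (log2 fold change -0.73, limma adjusted p = 2.64e-05). Several called members were low. Il6 stood at 0.196 to 0.380 RPKM untreated and 0.0172 to 0.128 RPKM treated, near the level of 3 reads over 1 kb. Without DKO replicate 3, 8 of the 23 were called, and Il6, Il27, Ptgs2 and Acod1 were not. The replicate block gave 15 calls, adding Ptges, Saa3 and Casp4.

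Chemokines of the CC and CXC families were mostly lower as well, with a median of -0.74. Of the 20 log2 fold changes, 15 were negative and 5 positive. Of 20, 7 were called lower and none higher, beside 1.69% lower among all genes. Ccl3, an inflammatory CC chemokine, fell from 221, 251 and 172 RPKM to 98.3, 103 and 52.7 RPKM (log2 fold change -1.39, limma SE 0.28, adjusted p = 0.00823), and Ccl4 from 64.9–95.2 to 20.1–43.2 RPKM (log2 fold change -1.22, limma adjusted p = 0.017). Cxcl3, Cxcl11, Ccl9 and Ccl17 completed the called members with Cxcl10. Ccl17 and Cxcl11 were low in treated cells, at 0 to 0.0765 and 0.0398 to 0.184 RPKM. With the replicate block 11 members were called, adding Ccl5, Ccl22, Cxcl1 and Cxcl2, whose adjusted p without it ran from 0.0524 to 0.117. The count was 6 without DKO replicate 3, since Ccl9 (adjusted p = 0.0844) and Cxcl3 (0.161) were not called and Ccl22 was (0.0366). Without oxLDL 10 replicate 1 alone it was 4.

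Feedback inhibitors of cytokine and NF-κB signalling mostly fell with the cytokines, with a median of -0.49. Of the 27 log2 fold changes, 20 were negative and 7 positive. Of 27, 10 were called lower and none higher, beside 1.69% lower among all genes. They were Socs1, Socs3, Cish, Nfkbia, Nfkbie, Nfkbiz, Dusp2, Tnip1, Tnip3 and Irak3. Nfkbia, which encodes the inhibitor IκBα, fell from 112–127 to 76.1–89.4 RPKM (log2 fold change -0.52, limma adjusted p = 0.00215). Nfkbiz, which encodes the nuclear cofactor IκBζ, fell from 8.70–10.8 to 4.61–5.27 RPKM (log2 fold change -0.95, limma adjusted p = 0.000177). Without untreated replicate 3, 6 of the 27 were called. The count was 7 without DKO replicate 3, and Socs1, Cish and Nfkbie were not called. It was 14 with the replicate block, adding Zfp36, Bcl3, Birc3 and Rgs16. Among immediate early factors 3 of 22 were called lower, namely Fos, Junb and Egr1, beside 1.69% lower among all genes. Egr1 was not called without DKO replicate 3 (adjusted p = 0.298). With the replicate block 4 were lower and 1 higher, and without oxLDL 10 replicate 3 alone 1 was higher. Of 19 Toll-like receptors and co-receptors, Tlr2, Tlr3 and Cd14 were called lower, beside 1.69% lower among all genes. Tlr3 was not called without DKO replicate 3 (adjusted p = 0.12). Tlr2 moved from 160, 164 and 162 RPKM to 92.5, 93.1 and 93.0 RPKM, a log2 fold change of -0.80 (limma SE 0.09, adjusted p = 0.000101), with little spread in either group. Cd14, the LPS co-receptor, fell by 0.83 on the log2 scale from 324–421 to 174–250 RPKM.

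Other steep decreases were those of Cd69, an early activation antigen, at 3.77 to 6.49 RPKM untreated and 1.12 to 1.59 RPKM treated (log2 fold change -1.75, limma adjusted p = 0.000399), and Mmp14, a membrane-bound collagenase, at 28.7 to 39.4 and 9.49 to 15.5 RPKM (log2 fold change -1.45, limma adjusted p = 0.000629). Mmp14 was the called member of 13 matrix metalloproteinases and TIMPs tested, beside 1.69% lower among all genes. The list median was 0.10. The formyl peptide receptors Fpr1 and Fpr2 had log2 fold changes of -1.68 and -1.62 (limma adjusted p = 0.00659 and 0.0202). They are close paralogs, and untreated replicate 3 was highest for both, at 8.59 and 14.7 RPKM. Fpr2 was not called without that library (adjusted p = 0.134). Mycl, a MYC family factor, had a log2 fold change of -1.39 (limma adjusted p = 0.00391). Cd40 was the called gene among 13 MHC class II and co-stimulation genes (log2 fold change -0.54), beside 1.69% lower among all genes. The median of that list was -0.15. Cd40 was not called without DKO replicate 3 (limma adjusted p = 0.0527). Nor was it called when untreated replicate 1, untreated replicate 2 or oxLDL 10 replicate 3 alone was left out. No gene was called in the lists of foam cell and lipid-associated macrophage genes (15 tested) and of cell cycle and DNA replication (27 tested), whose medians were 0.12 and 0.11. With the replicate block 1 foam cell gene was called higher, Apoe, whose residual transcript is given above (adjusted p = 0.000207).

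The broadest decrease was that of type I interferon-stimulated genes. Of 34 tested, 29 were called lower and none higher, beside 1.69% lower among all genes. All 34 log2 fold changes were negative, and the median was -0.74. Ifit1, an inhibitor of viral translation, fell from 35.5, 41.2 and 55.0 RPKM to 18.0, 13.9 and 19.5 RPKM (log2 fold change -1.35, limma SE 0.29, adjusted p = 0.012). Isg15, a ubiquitin-like modifier, fell from 38.0, 50.1 and 50.5 RPKM to 22.8, 19.3 and 21.4 RPKM (log2 fold change -1.12, limma SE 0.18, adjusted p = 0.00165). Mx2, a GTPase that restricts viruses, fell from 3.76, 4.70 and 5.47 RPKM to 2.12, 1.48 and 2.00 RPKM (log2 fold change -1.27, limma SE 0.21, adjusted p = 0.00186). The groups did not overlap for any of the 3. Oas1a, Oas1g, Irf9, Ifi35 and Bst2 were the members not called, at -0.13 to -0.37. Ifit3 and Ifit3b are near-identical copies, and so are Tgtp1 and Tgtp2 below, so reads could be split between them.

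Interferon-inducible GTPases, which attack the vacuoles of intracellular pathogens, were called lower in 12 of 16, beside 1.69% lower among all genes. None was called higher, all 16 were negative and the median was -0.87. Gbp5 fell from 1.81, 2.85 and 3.29 RPKM to 0.635, 0.893 and 0.924 RPKM (log2 fold change -1.56, limma SE 0.23, adjusted p = 0.000942). Gbp2 fell from 13.8–20.9 to 7.18–8.20 RPKM (log2 fold change -1.09), Irgm1 from 50.1–65.0 to 34.0–38.4 RPKM (-0.69) and Igtp from 20.8–26.6 to 13.0–13.7 RPKM (-0.81). The DNA-binding protein gene Ifi205, one of a family of near-identical genes, fell from 7.59, 8.13 and 15.1 RPKM to 2.58, 3.12 and 5.05 RPKM (log2 fold change -1.48, limma SE 0.29, adjusted p = 0.00704).

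The counts for these lists depended on single libraries. Replicate 3 was the highest untreated library in mean level of the interferon-stimulated genes, at 0.18 above the untreated mean on the log2 scale against -0.14 and -0.04 for replicates 1 and 2. Without untreated replicate 3, 13 of the 34 interferon-stimulated genes and 8 of the 16 GTPases were called lower, and without oxLDL 10 replicate 2 the first count was 19. Without DKO replicate 3 at every treatment the counts were 11 and 4, with medians of -0.65 and -0.80, and Gbp2, Irgm1 and Tgtp2 were among those not called (adjusted p = 0.0578, 0.101 and 0.0578). All members stayed negative in both fits without a replicate 3. With the replicate block the counts were 29 and 14. Whether the sex-linked transcripts of replicate 3 had a part in its interferon level was not tested.

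**Figure D3:**
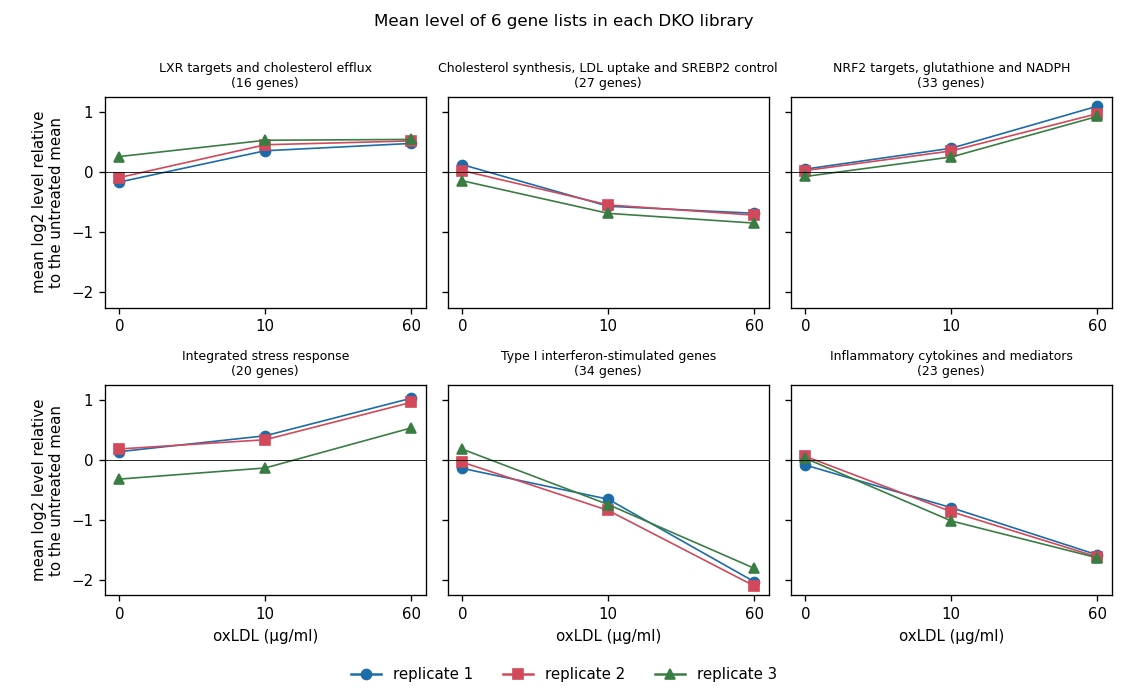
Mean log2 level of the tested genes of 6 lists in each DKO library, relative to the mean of the 3 untreated libraries, at 0, 10 and 60 µg/ml oxLDL, with a line for each replicate number. In each replicate the interferon-stimulated genes stood lower at oxLDL 10 (-0.84 to -0.66) than untreated (-0.14 to 0.18), and lower again at oxLDL 60 (-2.10 to -1.81).

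The interferon-stimulated element core, GAAA, any 2 bases and GAAA, was searched on both strands of the same promoter windows. It was in 49 of 190 promoters of called decreases (25.8%), 2 of 72 of called increases (2.78%), 421 of 12815 of genes tested (3.29%) and 3.44% of all 32851 promoters. It was in 15 of 30 promoters found for the interferon-stimulated list (50%). The NF-κB core, GGG, any 5 bases and CC, was in 64.7% of promoters of decreases, 63.9% of increases and 66.5% of genes tested. The 250 bases before the start are shown for the 3 of the steepest decreases that held the interferon core, with its letters in capitals and the same source.
Cxcl10, chr5:92348890-92349139, minus strand: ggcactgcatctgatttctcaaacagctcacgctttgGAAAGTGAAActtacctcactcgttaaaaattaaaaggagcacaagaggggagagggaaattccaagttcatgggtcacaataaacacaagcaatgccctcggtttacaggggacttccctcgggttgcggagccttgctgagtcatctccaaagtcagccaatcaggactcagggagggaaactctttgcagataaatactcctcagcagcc
Gbp5, chr3:142496684-142496933, plus strand: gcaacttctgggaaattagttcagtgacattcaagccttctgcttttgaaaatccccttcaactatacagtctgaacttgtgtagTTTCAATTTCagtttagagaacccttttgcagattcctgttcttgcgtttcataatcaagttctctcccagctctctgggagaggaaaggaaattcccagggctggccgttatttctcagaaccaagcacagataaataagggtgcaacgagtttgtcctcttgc
Ifi205, chr1:174031756-174032005, minus strand: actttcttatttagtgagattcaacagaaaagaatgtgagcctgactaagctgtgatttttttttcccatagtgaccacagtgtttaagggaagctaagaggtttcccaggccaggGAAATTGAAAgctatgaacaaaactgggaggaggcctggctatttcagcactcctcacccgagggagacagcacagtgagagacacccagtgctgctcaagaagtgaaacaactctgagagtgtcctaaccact

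The matches begin 213 bases before the start in Cxcl10, 165 in Gbp5, where the core lies on the opposite strand, and 134 in Ifi205, which has a further match after the start, outside the printed bases. No such match was in the windows of Il1b, Socs3, Ch25h, Fpr1, Fpr2, Il1a, Mmp14, Mycl or Ccl3, and this says only that these letters are not there.

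To ask which changes went further with more oxLDL, oxLDL 60 was compared with oxLDL 10 in DKO cells. The comparison called 726 genes (5.66% of those tested), 246 higher (1.92%) and 480 lower (3.74%). It shares the oxLDL 10 libraries with the comparison above, so values are set side by side without a test of their relation. Among LXR targets none was called higher and 1, Nr1h3, was lower. Abcg1 stood at 84.4 to 85.7 RPKM at oxLDL 60, a log2 difference of 0.24 from oxLDL 10 (limma adjusted p = 0.555), and Abca1 at 30.7 to 32.8 RPKM, a difference of 0.16 (adjusted p = 0.796). Scd2 differed by 0.04 between the amounts (adjusted p = 0.913). Among cholesterol synthesis genes, 3 of 27 were called lower, among them Acat2 (-0.56, adjusted p = 0.0032) and Idi1 (-0.94, adjusted p = 0.000431). Cyp51 differed by 0.01 between the amounts (adjusted p = 0.968).

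Antioxidant and interferon genes differed more between the amounts. Of the 33 NRF2 list members, 20 were higher at oxLDL 60 than at oxLDL 10 and none lower. Hmox1 reached 2160 to 2931 RPKM, a log2 difference of 1.11 (limma adjusted p = 7.87e-05), and Slc7a11, which was not called at the low amount, went from 3.53–4.51 to 11.8–16.8 RPKM (1.82, adjusted p = 5.33e-06). Slc40a1 reached 54.1 to 67.8 RPKM (1.69, adjusted p = 2.34e-06). In the integrated stress response list 6 of 20 were higher, among them Gdf15 at 18.4 to 41.1 RPKM (2.26, adjusted p = 0.002). Of the interferon-stimulated genes 33 of 34 were lower and of the GTPases 15 of 16. Cxcl10 reached 2.40 to 4.34 RPKM (-2.49, adjusted p = 3.13e-06) and Mmp14 1.35 to 2.10 RPKM (-2.73, adjusted p = 5.05e-07). Of the cytokine list 12 of 23 were lower and 1, Osm, was higher.

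To ask whether the response to oxLDL 10 depends on Treml4, the same comparison was made in Apoe-/- cells, whose libraries are separate from the DKO ones. It called 358 genes (2.79% of those tested). Of these, 244 were also called in DKO in the same direction, which is 84.1% of the DKO calls and 68.2% of the Apoe-/- calls. All 290 genes called in DKO had the same sign in Apoe-/- cells. The interaction of genotype and oxLDL 10 called no gene (0% of 12838). At an unadjusted limma p under 0.05 were 246 genes (1.92%), and 8 of the 290 DKO calls (2.76%). With the replicate block 500 genes (3.89%) were at that level. Evenly spread p-values would put more genes there than either fit did. The block gave 1 called gene, Scd2. Apoe-/- replicate 2 carried Xist at every treatment, as DKO replicate 3 did. Across genes, its deviations from the group means correlated at 0.399 to 0.481 with those of DKO replicate 3. No fit left it out of every Apoe-/- group. The interaction called no gene when its untreated or its oxLDL 10 library alone was left out.

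Scd2 stood at 4.36, 4.60 and 8.07 RPKM in untreated Apoe-/- libraries and at 9.43, 11.6 and 11.6 RPKM with oxLDL 10, where its log2 fold change was 0.98 (limma SE 0.18, adjusted p = 0.00341). Untreated DKO libraries were all lower than untreated Apoe-/- ones, and the treated libraries of the genotypes overlapped. The interaction was 1.29 (limma SE 0.26, adjusted p = 1) and, with the block, 1.29 (SE 0.18, adjusted p = 0.0386). With the block and without DKO replicate 3 the lowest adjusted p of any gene was 0.0575. Abcg1 had a log2 fold change of 1.80 in Apoe-/- and 2.55 in DKO cells (interaction 0.74, SE 0.34, adjusted p = 1). Slc40a1 had 0.72 and 1.29 (interaction 0.56, SE 0.21, adjusted p = 1), with Apoe-/- levels of 1.59 to 2.42 RPKM untreated and 3.11 to 3.28 RPKM treated. With 3 libraries a group, a difference between the genotypes that misses the threshold is not shown to be absent.

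**Figure D4:**
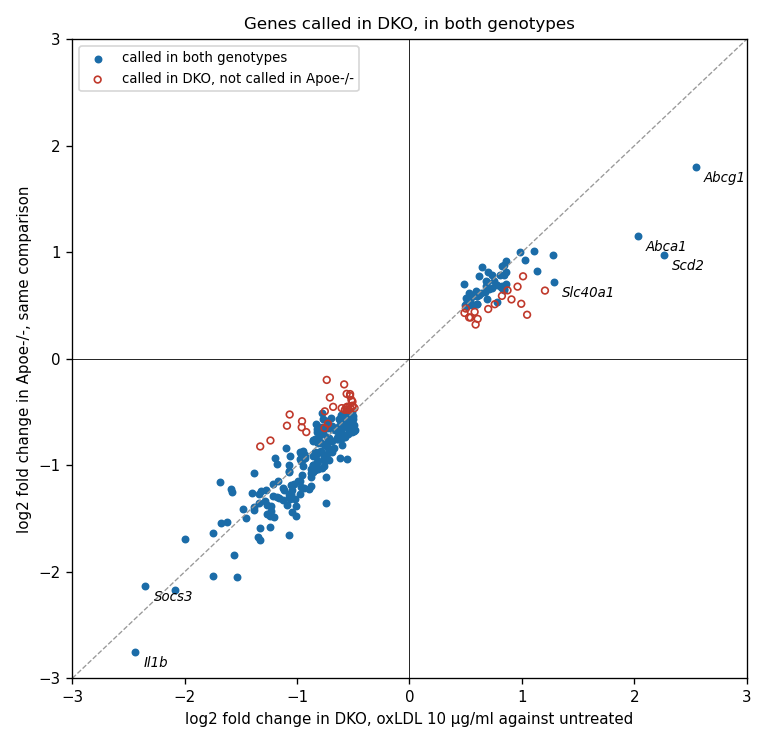
Log2 fold change of the 290 genes called in DKO cells, in DKO (horizontal axis) and in Apoe-/- cells (vertical axis), oxLDL 10 against untreated, with genes called in both genotypes filled and the dashed line marking equal values. All points lie in the quadrants of equal sign, and Scd2 sits at 2.27 in DKO and 0.98 in Apoe-/-.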

How the data were processed

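RNA of mouse BMDM was sequenced in 18 libraries, 3 biological replicates for each of 6 groups, which the titles name along with the replicate. Reads were aligned with STAR to mm10, per the submitters' processing notes. The authors deposited a table of RPKM values for gene symbols. The annotation and how shared reads and strand were handled in counting are not given in the sources used here, the sequencing platforms named in the labels conflict, and 24 symbols had been turned into dates.

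The authors tested with DESeq2, which needs counts. Here limma 3.58.1 in R 4.3.3 (lmFit, eBayes with trend) was run on log2(deposited RPKM + 0.1) for genes at 0.1 RPKM or more in at least 3 libraries, 1 coefficient per group, 12 residual degrees of freedom and Benjamini-Hochberg adjustment. Calls needed an adjusted p under 0.05 and a fold of 1.4. They come from this fit, which ignores the replicate numbers, unless the replicate block is named. The script was tested on simulated data. RPKM are scaled to each library's reads, so very abundant RNAs lower all other values. The 10 highest genes took 15.5% to 18.5% of summed RPKM. Depth was recovered from steps of 1 read in low values (89.4% of 13222 values within 0.05 of whole reads, with GENCODE M21 lengths for 97.3% of symbols). Read levels cover counting error only.

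Across genes, deviations from the group mean of DKO libraries with the same replicate number correlated at 0.193 to 0.611 in all 9 pairs. For untreated and oxLDL 10 libraries the range was 0.247 to 0.611. Other numbers gave -0.483 to 0.286, with a median of -0.35. Deviations from a group mean cancel within the group, which draws these pairs toward negative values. Replicates 1 and 2 correlated at 0.191 to 0.286 with each other. Within replicate 1 the range was 0.193 to 0.247, and within replicate 2 it was 0.258 to 0.333. The correlations thus set replicate 3 apart and do not tell replicates 1 and 2 apart. The block follows the numbers in the titles. Whether same-numbered libraries come from 1 animal is not stated.

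Named genes were Treml4, Apoe, Slc40a1, the 15 largest increases and 15 largest decreases (called, no overlap between groups, mean of at least 1 RPKM), and members of 19 gene lists. Some genes that this rule names are not reported here, and the counts include them. The genes, lists and motifs were chosen with earlier results of these data known. Xist and Ddx3y are outside the naming rule and were chosen after their values were seen. Alternatives covered the pseudocount, filter, scaling, trend, fold limit, samples fitted, the replicate block and left-out libraries. Depth, RefSeq promoters and plots were handled in Python 3.11.15 (matplotlib 3.10.9, pandas 2.3.3, numpy 2.4.6).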

Additional observations from a re-analysis of the deposited data

Results flagged for a closer look

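The response of Scd2 to oxLDL 10 differed between DKO and Apoe-/- cells in the limma interaction test with the replicate block, by 1.29 on the log2 scale (SE 0.18, adjusted p = 0.0386). It was the 1 gene called in that fit, and without the block the adjusted p was 1. Untreated levels were 2.18 to 2.58 RPKM in DKO and 4.36 to 8.07 RPKM in Apoe-/- cells.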

How the results depend on the processing

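All 290 called genes kept their direction under each alternative run for this comparison that tested them. The filter of 1 RPKM tested 259 of them, and the others tested all 290. The kept direction was largely fixed by the choice of these genes and is no separate support. Groups did not overlap for 286 of them, so leaving out libraries could not reverse those, and the block leaves fold changes as they were. The count of 290 (73 higher, 217 lower) became 449 with the replicate block (135 higher) and 510 with no limit on the fold (201 higher). Leaving out single libraries gave 185 to 361 calls, 43 to 139 higher and 135 to 222 lower, lowest without DKO untreated replicate 3 (185) and DKO oxLDL 10 replicate 2 (186). Without replicate 3 of every DKO group 121 genes were lower, and with the block added to that, 126 were higher. The latter fit was chosen after seeing the data. These changes go with fewer libraries, a different error term or no fold limit, and other causes were not tested. The interaction called 1 gene with the block and 0 under the other alternatives. With no limit on the fold, the Apoe-/- comparison called 904 genes and oxLDL 60 against oxLDL 10 in DKO called 2000. With median-ratio scaling 310 genes were called, 74 higher and 236 lower. The block changed no other call among the genes with the largest changes. Among these, calls of Cd300lf and Osgin1 were lost under 7 alternatives each and that of Fpr2 under 5, while Fpr1, Ifi205 and Mycl were lost when the fit used the compared groups alone. At this depth genes near 0.07 RPKM rest on about 3 reads.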
